A study of Homo sapiens with 42 samples.

Results

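The beta-globin locus was described through 17 of the 33914 chromatin loops measured in K562 cells, chosen as the loops on chromosome 11 with an anchor start between positions 5000000 and 5700000 of GRCh38. This stretch holds the 5 beta-like globin genes HBE1, HBG2, HBG1, HBD and HBB, the locus control region beside them and olfactory receptor genes on either side. The rule used positions alone, though it was set with earlier results of these data known. K562 is an established human leukemia cell line, here of wild-type genotype by its labels, and PMA is a phorbol ester that drives it toward megakaryocytes. In situ Hi-C joins DNA ends that lie close together in fixed nuclei, so that each sequenced pair is 1 contact between genome positions. Cells were collected at 0 h, the untreated state, and after 6 h and 72 h with 25 nM PMA, with 4 biological replicates at each time. All groups share the cell line, so that results hold for a single line, and a change in the share of cells that carry a contact cannot be told apart from a change in contact per cell. The contact table holds no RNA or protein value, and the erythroid or megakaryocytic identity of the cells was therefore not checked against markers.

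The beta-like globins are the non-alpha chains of hemoglobin. HBE1 is the embryonic gene, HBG2 and HBG1 are the fetal genes, and HBD and HBB are the adult genes, in that order from the locus control region, a group of erythroid enhancers that contacts whichever gene is active. K562 cells make embryonic and fetal rather than adult globin, and CTCF sites among the olfactory receptor genes on either side bound the domain. Olfactory receptor genes encode odorant receptors of nasal neurons and are silent in most other tissues.

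On GRCh38.p14 all 5 globin genes read from the minus strand: HBB at chr11:5225464-5227071, HBD at chr11:5232838-5234483, HBG1 at chr11:5248269-5249857, HBG2 at chr11:5253188-5254781 and HBE1 at chr11:5268345-5269945. The promoters of 3 genes are shown, each as the 250 bases before the gene start, 5′ to 3′, from RefSeq on GRCh38.p14. The HBD promoter, at chr11:5234484-5234733 on the minus strand, is shown because the promoter set used here held only 1 of the 5 globin genes. HBD lies inside 8 of the loops, as do the other globin genes, and HBE1 also lies inside loop21321. The OR51V1 promoter is at chr11:5200683-5200932 on the minus strand, and this olfactory receptor gene starts in an anchor of loop21315, which was lower at both times with PMA. The OR52E5 promoter is at chr11:5892958-5893207 on the plus strand, and this olfactory receptor gene starts in the anchor shared by the loops that were lower over TRIM5. Capitals mark matches to AGATAA or its reverse TTATCT (the letters read by GATA factors) and to CCAAT or its reverse ATTGG.
HBD: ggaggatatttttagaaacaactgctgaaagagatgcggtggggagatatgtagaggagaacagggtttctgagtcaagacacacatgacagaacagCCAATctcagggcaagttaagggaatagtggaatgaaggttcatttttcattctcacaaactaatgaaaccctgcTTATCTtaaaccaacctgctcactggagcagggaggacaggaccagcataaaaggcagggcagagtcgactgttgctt
OR51V1: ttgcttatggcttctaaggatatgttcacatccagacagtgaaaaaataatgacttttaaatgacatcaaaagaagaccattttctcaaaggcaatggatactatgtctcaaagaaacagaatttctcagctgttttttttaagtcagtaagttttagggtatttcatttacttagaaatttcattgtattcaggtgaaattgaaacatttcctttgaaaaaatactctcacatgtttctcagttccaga
OR52E5: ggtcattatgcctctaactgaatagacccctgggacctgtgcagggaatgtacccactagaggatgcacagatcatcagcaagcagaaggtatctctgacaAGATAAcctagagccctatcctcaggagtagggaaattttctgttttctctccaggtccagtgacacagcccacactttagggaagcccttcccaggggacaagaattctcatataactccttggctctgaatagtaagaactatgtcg
The HBD promoter held TTATCT from 78 bases before the start and CCAAT from 153 bases before it, and the OR52E5 promoter held AGATAA from 149 bases before its start. No match to these letters, or to CACCC and its reverse GGGTG, was found in the OR51V1 window. The promoters of LINC02749 and OR52E4, which also start in anchors of the locus, were searched and are not shown. Neither held a GATA or CCAAT match. The LINC02749 promoter held CACCC from 165, 134 and 73 bases before its start, and OR52E4 held none. Among 35116 promoters of the same length, 9.17% held a GATA match, 32.0% a CCAAT match and 54.7% a CACCC match, and no matches overlapped in the sequences shown. The promoters of HBE1, HBG2, HBG1 and HBB were not in the promoter set used here and are named only.

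Libraries held between 736929 and 1472197 contacts over all loops, of which 527 to 1165 fell in the 17 loops of the locus. Single loops of the locus had between 7 and 212 contacts in a library, and all 17 passed the filter on low counts that left 24132 loops for testing. Values are normalized counts, the contacts of a loop per 1000000 contacts in tested loops after scaling. Counts of 72 h replicates 3 and 4 did not differ beyond sampling noise (chi-square test over loops, 1.00 per degree of freedom, p = 0.36). They were therefore counted as 1 sample in every mean ± SD, which gives n = 3 at 72 h. In the same chi-square test, replicates 3 and 4 were also close at 0 h (1.02, p = 0.0205) and at 6 h (1.02, p = 0.00589). At those times they were kept as 2 samples. The other pairs of libraries of a time ran from 1.06 to 1.27. All libraries entered the edgeR fit as separate samples. Its p-values measure the spread between these samples, which the labels name biological replicates. At 72 h the fit therefore counted 4 samples beside the n = 3 of the means. If replicates 3 and 4 of 72 h are not independent, the p-values of 72 h comparisons may be too small. Log2 fold changes below are from that fit, and an adjusted p is a Benjamini-Hochberg value over all tested loops with a threshold of 0.05.

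Each loop joins 2 stretches of 10 kb, its anchors. The 17 loops measured 30 to 820 kb, with a median of 250 kb against 440 kb over all loops. All 5 globin genes lay between the anchors of 8 loops, and HBG2 alone among them had an end inside an anchor. The anchor at chr11:5120001-5130000, at OR52A5 and the pseudogene OR52A4P, took part in 4 loops. The anchor at chr11:5290001-5300000, at the pseudogene OR51AB1P on the HBE1 side of the globin genes, took part in 3. With the anchor at chr11:5200001-5210000, which holds OR51V1, these formed a closed triplet of 3 loops, 2 of which span the globin genes.

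At 6 h against 0 h, 2 of the 17 loops fell and none rose in edgeR's test, beside 6.41% of all tested loops that changed (4.07% fell and 2.34% rose, or 3.03% and 3.19% with counts scaled to the library total). At 72 h against 0 h, 5 fell and 1 rose, beside 33.6% of all tested loops that changed (16.9% fell and 16.7% rose). At 72 h against 6 h, 2 rose and 1 fell, beside 20.5% of all tested loops (10.7% rose and 9.81% fell). The untreated libraries lay entirely above those of 6 h in 3 of the 17 loops, beside 5.77% of all tested loops, and entirely above those of 72 h in 5, beside 14.1%. In 1 loop all 72 h libraries lay above the untreated ones, beside 14.2%. Of the libraries of 72 h and 6 h, those of 72 h lay entirely higher in 2 loops (10.4% of all tested loops) and entirely lower in 1 (9.43%). The median log2 fold change of the 17 loops was -0.14 at 6 h and -0.24 at 72 h, against 0.01 for all tested loops at each time, and 9 of 17 were below 0 at 6 h against 48.3% of all and 11 of 17 at 72 h against 49.0%. The comparisons with 0 h share the untreated libraries.

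**Figure D1:**
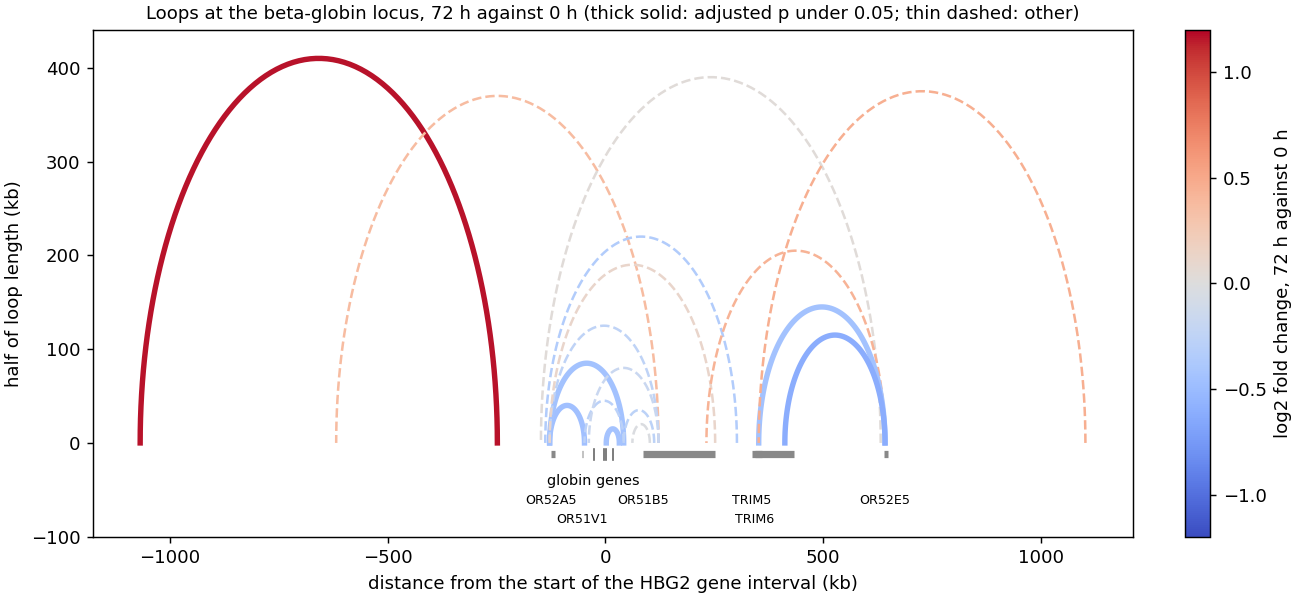
Arcs join the anchors of the 17 loops by distance from HBG2 (x axis, kb), with the height scaled to loop length and the colour giving the log2 fold change at 72 h against 0 h. Thick solid arcs have an adjusted p under 0.05: the 820 kb loop is red, and 5 shorter arcs at and beside the globin genes and over TRIM5 are blue.

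The shortest loop of the locus, loop21321 of 30 kb, was the one that touched a globin gene. It joined chr11:5250001-5260000, which holds all of HBG2, to chr11:5280001-5290000 on the far side of HBE1, where the locus control region lies. Its normalized counts in replicates 1 to 4 were 154, 118, 151 and 139.9 at 0 h, 103, 99.99, 134 and 128 at 6 h and 111, 112, 89.4 and 99.98 at 72 h. The 4 untreated libraries lay above all 4 libraries of 72 h, while those of 6 h overlapped both. Means were 140.4 ± 16.2 at 0 h (SD, n = 4), 116 ± 17.4 at 6 h (n = 4) and 106 ± 9.75 at 72 h (n = 3). The loop fell at 72 h against 0 h, 1.35-fold, with a log2 fold change of -0.44 (SE 0.11, adjusted p = 0.000627) in edgeR's test. At 6 h the log2 fold change was -0.29 (SE 0.11, adjusted p = 0.0863), which did not pass, though it did with the replicate block (adjusted p = 0.0484) and without untreated replicate 2 (0.0231) or 6 h replicate 3 (0.0424). HBG1 and HBG2 are near-identical copies, and how the authors placed reads that match both is not given in the sources used here, so the count of this anchor is uncertain to that extent.

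Loops of like length, taken here and below as those of other loci within 10% of the length or 10 kb, had a median log2 fold change of -0.27 at 72 h, and 20.1% of them had a lower value than loop21321. With the trend of loop length taken out, it stood at -0.25 on the log2 scale (adjusted p = 0.0503 in edgeR), just outside the threshold.

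The loop between OR52A5 and OR51V1, loop21315 of 80 kb, lies beside HBB and holds no globin gene between its anchors, chr11:5120001-5130000 and chr11:5200001-5210000. In replicates 1 to 4 it had normalized counts of 152, 108, 117 and 128 at 0 h, 107, 72.9, 96.2 and 74.8 at 6 h and 99.96, 73.3, 91.5 and 104 at 72 h. Every untreated library was above every library of 6 h and of 72 h. Means were 126 ± 19.1 at 0 h (SD, n = 4), 87.7 ± 16.6 at 6 h (n = 4) and 90.3 ± 14.7 at 72 h (n = 3). It fell 1.45-fold at 6 h, with a log2 fold change of -0.54 (SE 0.12, adjusted p = 0.00103), and at 72 h it was 1.38-fold lower than at 0 h, with -0.46 (SE 0.11, adjusted p = 0.000586), both in edgeR's test. The log2 difference of 72 h against 6 h was 0.08 (SE 0.12, adjusted p = 0.689). Loop21315 is 1 of the 2 loops of the locus that passed at 6 h.

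Relative to loops of like length, loop21315 was strong before PMA. Its 0 h level was 1.57 times their median and above 82.3% of them. Only 2.56% of those loops had a lower log2 fold change at 6 h and 14.4% at 72 h. With the length trend taken out it still passed at both times, at -0.44 on the log2 scale at 6 h (adjusted p = 0.0103 in edgeR) and -0.36 at 72 h (0.00654).

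The wide loop around all 5 globin genes, loop21316 of 170 kb, joined the OR52A5 anchor to the OR51AB1P anchor. Replicates 1 to 4 gave normalized counts of 69.5, 69.3, 53.9 and 72.8 at 0 h, 73.5, 60.7, 46.7 and 49.5 at 6 h and 51.3, 46.2, 44.7 and 51.8 at 72 h. The 72 h libraries were all below the untreated ones, and those of 6 h spanned both. Means were 66.4 ± 8.45 at 0 h (SD, n = 4), 57.6 ± 12.2 at 6 h (n = 4) and 48.6 ± 2.58 at 72 h (n = 3). The loop fell 1.36-fold at 72 h, with a log2 fold change of -0.45 (SE 0.14, adjusted p = 0.00705), and had -0.18 (SE 0.14, adjusted p = 0.481) at 6 h in edgeR's test.

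The inner loop around the 5 globin genes, loop21319 of 90 kb, joined OR51V1 to OR51AB1P and completes the triplet. Its normalized counts in replicates 1 to 4 were 88.4, 78.8, 65.2 and 85.3 at 0 h, 82.4, 52.3, 69.3 and 90.5 at 6 h and 80.5, 63.2, 52.0 and 66.9 at 72 h. Libraries of all 3 times overlapped. Means were 79.4 ± 10.3 at 0 h (SD, n = 4), 73.6 ± 16.7 at 6 h (n = 4) and 67.7 ± 11.2 at 72 h (n = 3), and the log2 differences, -0.14 at 6 h (adjusted p = 0.596) and -0.27 at 72 h (adjusted p = 0.0853), did not pass edgeR's test. The 72 h value passed without untreated replicate 3 (adjusted p = 0.0356) or 72 h replicate 1 (0.0255), and with no filter on low counts (0.0372). Within the triplet the 72 h log2 fold changes thus stood at -0.46 for the side without globin genes, -0.45 for the span and -0.27 for the side with them. Differences between these loops were not tested.

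Another loop around the globin genes, loop21320 of 160 kb, joined chr11:5210001-5220000, between OR51V1 and HBB, to chr11:5370001-5380000 among the olfactory receptor genes beyond the locus control region. In replicates 1 to 4 it had normalized counts of 32.6, 32.3, 37.6 and 33.0 at 0 h, 30.4, 33.6, 34.0 and 21.7 at 6 h and 33.6, 26.1, 35.4 and 23.2 at 72 h. The libraries of all times overlapped, with means of 33.9 ± 2.53 at 0 h (SD, n = 4), 29.9 ± 5.71 at 6 h (n = 4) and 29.7 ± 3.77 at 72 h (n = 3). Its log2 fold changes were -0.15 at 6 h (adjusted p = 0.69) and -0.18 at 72 h (adjusted p = 0.448).

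On the HBE1 side of the globin genes, loop21322 of 70 kb ran from OR51AB1P to chr11:5360001-5370000. Replicates 1 to 4 gave normalized counts of 44.2, 35.1, 42.7 and 38.7 at 0 h, 26.5, 38.3, 29.7 and 36.2 at 6 h and 34.5, 36.1, 33.3 and 29.5 at 72 h. Times overlapped, and means were 40.2 ± 4.08 at 0 h (SD, n = 4), 32.7 ± 5.52 at 6 h (n = 4) and 34.0 ± 2.43 at 72 h (n = 3). Its log2 fold changes, -0.28 at 6 h (adjusted p = 0.346) and -0.26 at 72 h (adjusted p = 0.203), did not pass.

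Nested inside it, loop21323 of 40 kb ran from chr11:5310001-5320000, at the pseudogene OR51B3P, to chr11:5350001-5360000, at the olfactory receptor gene OR51B6. Its normalized counts in replicates 1 to 4 were 54.3, 49.4, 46.4 and 46.6 at 0 h, 52.9, 47.7, 59.4 and 45.8 at 6 h and 55.7, 48.2, 46.8 and 44.6 at 72 h. The ranges of the 3 times nearly coincided, and means were 49.2 ± 3.68 at 0 h (SD, n = 4), 51.5 ± 6.10 at 6 h (n = 4) and 49.9 ± 5.22 at 72 h (n = 3). Log2 fold changes were 0.04 at 6 h (SE 0.15, adjusted p = 0.929) and -0.02 at 72 h (SE 0.14, adjusted p = 0.917). Both of these loops were weak for their length before PMA, at 0.471 and 0.454 times the median of like loops, and above only 7.73% and 7.27% of them.

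**Figure D2:**
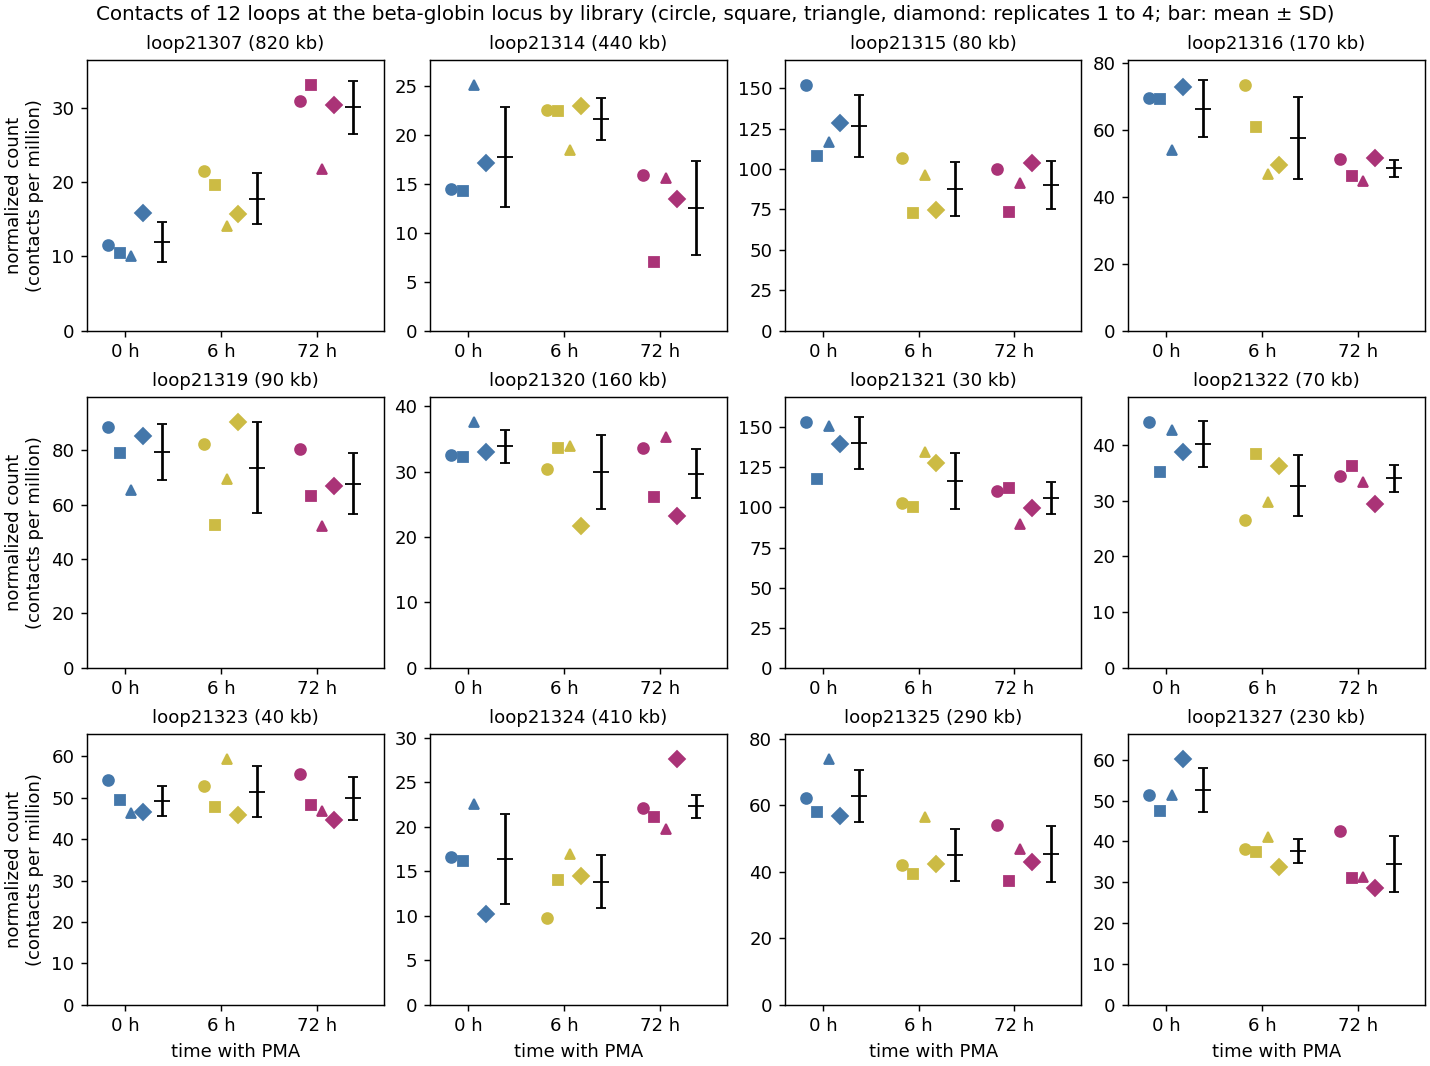
Normalized counts (y axis, contacts per 1000000) of the 12 loops given by library at 0, 6 and 72 h of PMA (x axis), with 1 symbol per replicate and bars for the mean ± SD. In loop21315 all untreated libraries lie above the others, and in loop21307 all 72 h libraries lie above the others.

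From within TRIM5, which encodes a tripartite motif protein that restricts retroviruses, 2 loops ran across its relative TRIM22 and ended in the anchor at chr11:5890001-5900000, which holds the start of OR52E5. Loop21325 of 290 kb began at chr11:5600001-5610000, inside the annotated intervals of TRIM5 (chr11:5588635-5685074) and TRIM6 (chr11:5596111-5612952). In replicates 1 to 4 it had normalized counts of 62.3, 57.9, 74.0 and 56.9 at 0 h, 42.2, 39.3, 56.6 and 42.2 at 6 h and 54.0, 37.1, 46.8 and 42.8 at 72 h. Every untreated library was above every 6 h and 72 h library, though 6 h replicate 3 at 56.6 lay just under the lowest untreated value of 56.9. Means were 62.8 ± 7.86 at 0 h (SD, n = 4), 45.1 ± 7.82 at 6 h (n = 4) and 45.3 ± 8.42 at 72 h (n = 3). The loop fell 1.39-fold at 6 h, with a log2 fold change of -0.48 (SE 0.15, adjusted p = 0.0295), and was 1.36-fold lower than at 0 h at 72 h, with -0.44 (SE 0.14, adjusted p = 0.00921), in edgeR's test. The call at 6 h did not hold without untreated replicate 1 (adjusted p = 0.0746) or 3 (0.107), or without 6 h replicate 1 (0.0814), 2 (0.124) or 4 (0.0584), nor in DESeq2 (0.121). Before PMA this loop was 2.19 times the median of like-length loops and above 90.3% of them.

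Loop21327 of 230 kb began at chr11:5660001-5670000, also inside the TRIM5 interval, and ended in the same OR52E5 anchor. Replicates 1 to 4 gave normalized counts of 51.4, 47.5, 51.4 and 60.3 at 0 h, 38.2, 37.4, 41.0 and 33.8 at 6 h and 42.5, 31.1, 31.2 and 28.6 at 72 h. All untreated libraries were above all those of 6 h and of 72 h, with 72 h replicate 1 nearest to them. Means were 52.6 ± 5.41 at 0 h (SD, n = 4), 37.6 ± 2.99 at 6 h (n = 4) and 34.5 ± 6.93 at 72 h (n = 3). It fell at 72 h, 1.53-fold, with a log2 fold change of -0.61 (SE 0.15, adjusted p = 0.000811), the lowest value at that time among the 17 loops, and 6.28% of like-length loops had a lower one. At 6 h its value of -0.46 (SE 0.16, adjusted p = 0.0536 in edgeR's test) did not pass, though it did with the replicate block (adjusted p = 0.0446), with a batch term (0.0442), with no filter on low counts (0.0472) and without untreated replicate 2 (0.0413) or 72 h replicate 2 (0.0478).

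Another loop to the OR52E5 anchor, loop21324 of 410 kb from chr11:5480001-5490000 at the olfactory receptor gene OR52D1, had its highest values at 72 h. Its normalized counts in replicates 1 to 4 were 16.7, 16.1, 22.6 and 10.2 at 0 h, 9.80, 14.0, 16.98 and 14.5 at 6 h and 22.1, 21.1, 19.8 and 27.7 at 72 h. All 72 h libraries were above all 6 h libraries, and untreated replicate 3 lay among those of 72 h. Means were 16.4 ± 5.05 at 0 h (SD, n = 4), 13.8 ± 2.98 at 6 h (n = 4) and 22.3 ± 1.33 at 72 h (n = 3). The 72 h value against 0 h, 0.44 (SE 0.21, adjusted p = 0.0988), did not pass, whereas against 6 h the loop rose 1.60-fold with a log2 fold change of 0.68 (SE 0.23, adjusted p = 0.0233) in edgeR's test. That call did not hold without 6 h replicate 1 (adjusted p = 0.121) or 72 h replicate 4 (0.0981), nor in DESeq2 (0.123).

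Counted over the 4 loops of the OR52E5 anchor, which include a loop of 1260 kb that starts outside the region, the share of loop21327 was 37.6% ± 4.77 at 0 h (SD, n = 4) and 29.2% ± 2.88 at 72 h (n = 3). The share of loop21324 was 11.6% ± 2.99 and 19.1% ± 2.12 at the same times. The loop of 1260 kb, which is outside the 17, took 6.21% ± 2.39 and 13.5% ± 2.69, and loop21325 took 44.6% ± 2.72 and 38.3% ± 3.02. Untreated and 72 h libraries overlapped in the share of loop21325 and in none of the other 3. At the OR52A5 anchor, the share of the OR51V1 loop was 48.0% ± 3.83 at 0 h, 38.9% ± 4.06 at 6 h (n = 4) and 44.4% ± 5.62 at 72 h, and the globin-spanning loop21316 took 25.3% ± 3.06, 25.6% ± 4.07 and 24.0% ± 0.885. At the OR51AB1P anchor the inner globin loop21319 took 42.6% ± 1.55, 44.7% ± 7.20 and 44.8% ± 3.14. These shares are descriptions with no test, and the shares within an anchor sum to the whole, so that they do not vary independently. The shares were not corrected for loop length, and shares at anchors of other loci were not taken.

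The loop with the largest change of the locus, loop21307 of 820 kb, does not reach the globin genes. It joined chr11:4180001-4190000, which holds the start of the long non-coding RNA LINC02749, to chr11:5000001-5010000 at the olfactory receptor gene OR51L1. In replicates 1 to 4 it had normalized counts of 11.6, 10.4, 10.0 and 15.9 at 0 h, 21.6, 19.6, 14.2 and 15.7 at 6 h and 31.0, 33.1, 21.8 and 30.3 at 72 h. All 72 h libraries were above all others, though 72 h replicate 3 exceeded 6 h replicate 1 only slightly, and the untreated and 6 h libraries overlapped. Means were 11.996 ± 2.696 at 0 h (SD, n = 4), 17.8 ± 3.43 at 6 h (n = 4) and 30.1 ± 3.60 at 72 h (n = 3). The loop rose 2.24-fold at 72 h against 0 h, with a log2 fold change of 1.16 (SE 0.21, adjusted p = 4.84e-06), and had 0.54 (SE 0.24, adjusted p = 0.179) at 6 h in edgeR's test. Long loops had positive values in general: the median at 72 h of like-length loops was 0.26, and 98.8% of them had a lower value than loop21307. With the length trend taken out its value was 0.93 (adjusted p = 0.000295 in edgeR).

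Against 6 h, loop21307 was 1.55-fold higher at 72 h, with a log2 fold change of 0.63 (SE 0.20, adjusted p = 0.0181). This call did not hold without 6 h replicate 3 (adjusted p = 0.0591) or 4 (0.0576) or 72 h replicate 2 (0.058), nor in DESeq2 (0.107).

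A loop of 440 kb around the globin genes, loop21314 from chr11:5110001-5120000 to chr11:5550001-5560000, had its lowest values at 72 h. Replicates 1 to 4 gave normalized counts of 14.5, 14.2, 25.1 and 17.06 at 0 h, 22.6, 22.4, 18.4 and 22.9 at 6 h and 15.9, 7.03, 15.6 and 13.4 at 72 h. All 72 h libraries were below all 6 h libraries, and the untreated libraries overlapped both. Means were 17.7 ± 5.08 at 0 h (SD, n = 4), 21.6 ± 2.13 at 6 h (n = 4) and 12.5 ± 4.78 at 72 h (n = 3). It was 1.58-fold lower at 72 h than at 6 h, with a log2 fold change of -0.66 (SE 0.23, adjusted p = 0.0296) in edgeR's test, and had -0.34 (SE 0.24, adjusted p = 0.263) against 0 h. The call against 6 h did not hold without 6 h replicate 1 (adjusted p = 0.0664), 2 (0.0573) or 4 (0.0585) or 72 h replicate 2 (0.152), nor in DESeq2 (0.127).

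The other 5 loops did not pass in any comparison. Loop21317 of 250 kb and loop21318 of 380 kb leave the OR52A5 anchor and span the globin genes, and their log2 fold changes at 72 h were -0.24 (adjusted p = 0.216) and 0.12 (adjusted p = 0.683). Loop21311 of 740 kb and loop21313 of 780 kb also span them, with 0.37 (adjusted p = 0.275) and 0.04 (adjusted p = 0.925). Loop21326 of 750 kb shares the TRIM6 anchor with loop21325 and had 0.47 (adjusted p = 0.119). Their mean normalized counts before PMA ran from 10.7 for loop21311 to 46.6 for loop21317.

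**Figure D3:**
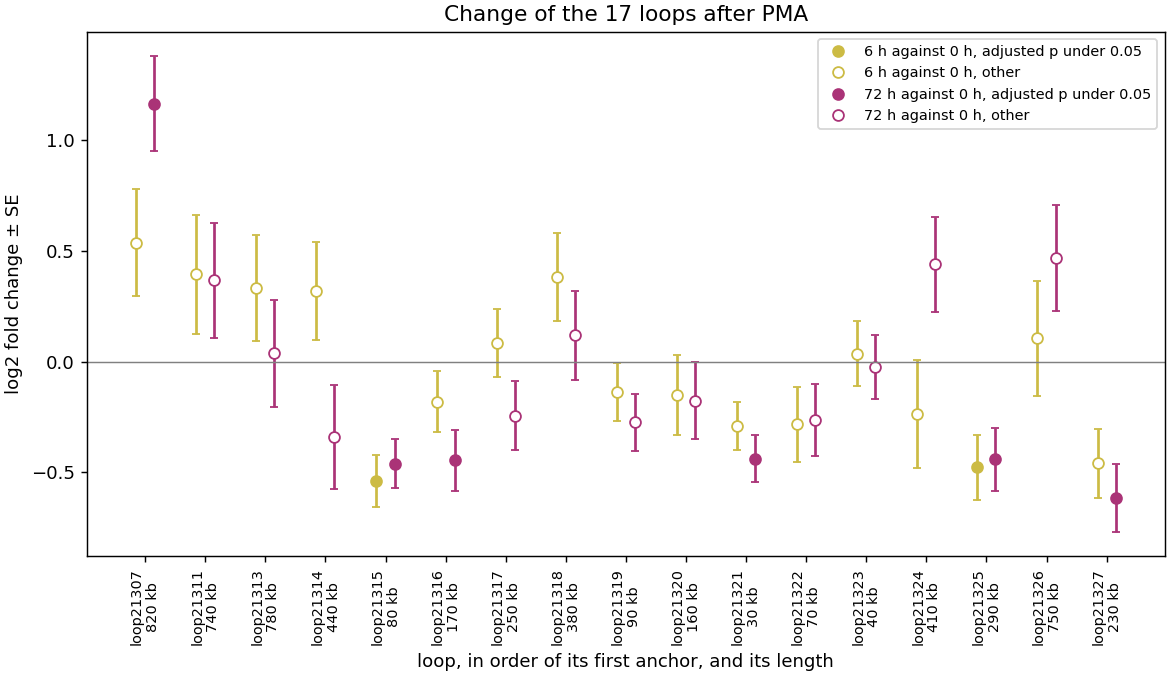
Log2 fold changes ± SE (y axis) of the 17 loops at 6 h and at 72 h against 0 h, ordered by their first anchor along chromosome 11 (x axis, with loop lengths); filled points have an adjusted p under 0.05. Loop21315 and loop21325 are filled at both times, and loop21307 stands highest at 1.16.

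By the labels, the first pair of biological replicates was prepared as 3 technical replicates and the other pair as 2, and only the other pair had 2 sequencing runs. The changes were therefore also taken within each pair. At 72 h against 0 h, loop21321 at HBG2 had log2 fold changes of -0.31 in replicates 1 and 2 alone and -0.60 in replicates 3 and 4 alone. Loop21315 had -0.60 and -0.32, loop21316 had -0.50 and -0.38, loop21325 had -0.39 and -0.52, loop21327 had -0.42 and -0.86, and loop21307 had 1.38 and 0.90. The sign was the same in both pairs for each of the 6 loops. The loops given here were picked by the fit of all libraries, which holds both pairs. The shared sign is therefore no separate check. At 6 h, loop21315 had -0.56 and -0.53, and loop21325 had -0.56 and -0.40. At 72 h against 6 h, loop21307 had 0.59 and 0.73, loop21314 had -0.85 and -0.47, and loop21324 had 0.76 and 0.55.

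The loops of the locus are shorter than most, and length moved with the change at 72 h. Among loops of 100 kb or less, 2 of the 5 at the locus fell at 72 h, which is near the 36.3% that fell among all such loops. Of the 6 loops of 110 to 400 kb at the locus, 3 fell, beside 19.3% of all loops of that length, and their median log2 fold change was -0.34 against -0.04. None of the 6 loops of 410 to 1000 kb fell and 1 rose, beside 6.61% that fell and 17.9% that rose, with medians of 0.40 and 0.14. With the length trend taken out, 4 loops fell and 1 rose at 72 h, beside 16.0% and 13.7% of all tested loops. These counts are small, and nothing was tested over them.

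**Figure D4:**
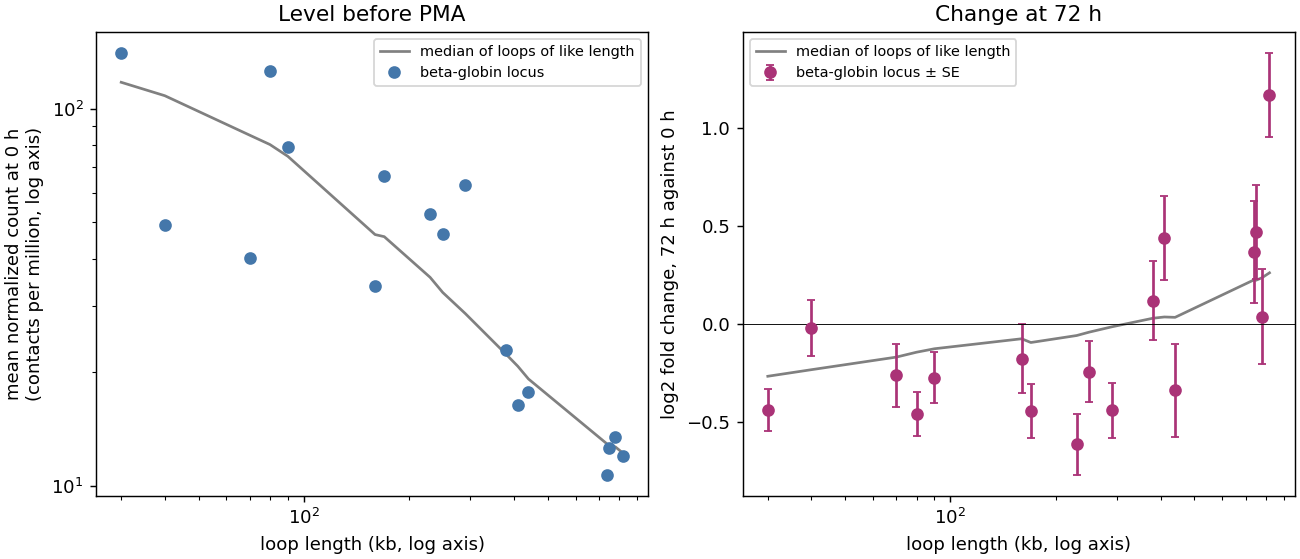
Each point is 1 of the 17 loops against loop length (x axes, kb, log scale): at left the mean normalized count at 0 h (contacts per 1000000, log scale), at right the log2 fold change ± SE at 72 h against 0 h; grey lines give the median of all tested loops of like length. Loop21325 lies 2.19 times above the line at left, and loop21307 lies highest at right.

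Summed over the 7 loops with an anchor start in the window of the globin genes, from OR51V1 to OR51B3P, normalized counts in replicates 1 to 4 were 595, 491, 513 and 545 at 0 h, 476, 406, 469.8 and 446 at 6 h, and 466, 406, 393 and 419.5 at 72 h. The untreated libraries were all above the others, and those of 6 h and 72 h overlapped. Means were 536 ± 45.0 at 0 h (SD, n = 4), 449 ± 31.8 at 6 h (n = 4) and 426 ± 34.8 at 72 h (n = 3). The other 10 loops together gave 268 ± 23.5, 261 ± 12.9 and 252 ± 6.03. Of the untreated mean, loop21321 and loop21315 gave 140.4 and 126, and the totals are a description with no test. The window holds all 5 loops of the locus that measure 100 kb or less. Over all tested loops of that length, the median log2 fold change was -0.11 at 6 h and -0.18 at 72 h. At 72 h 67.8% of them were below 0. The totals were not corrected for length, and totals of other loci were not taken.

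Over all 4 libraries of each time, with 72 h replicates 3 and 4 kept apart as in the fit, the summed window had log2 fold changes of -0.25 (6 h) and -0.35 (72 h). This value belongs to the sum and not to its single loops, which ran from -0.02 for loop21323 to -0.46 for loop21315 at 72 h. The sum was nearest to 3 loops elsewhere among 3147 candidates with a mean normalized count of at least 50 and a protein-coding gene at an anchor. By Euclidean distance over these 2 values, a description with no test, they were the loop at C5AR1, a complement receptor gene, on chromosome 19 (-0.26 and -0.36), the loop at S1PR1, a sphingosine phosphate receptor gene, on chromosome 1 (-0.25 and -0.34), and a loop on chromosome 11 at CDC42BPG, TM7SF2, VPS51 and ZNHIT2 (-0.25 and -0.34).

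Loops at other globin and erythroid genes were counted where an end of a listed gene lies in an anchor. The alpha-globin genes, which encode the partner chains of hemoglobin, had 2 tested loops for 3 of 5 genes, and both fell at 72 h. The loop at HBA1 and HBA2 was at -0.39 on the log2 scale (adjusted p = 0.00189 in edgeR) and that at HBQ1 at -0.60 (adjusted p = 0.000261). Among regulators of globin switching and red cell genes, 15 of 20 genes had 20 tested loops, of which 9 fell and none rose at 72 h, with a median of -0.24. The loop at KLF1, an activator of HBB, had -0.41 (adjusted p = 0.00155), and 2 of the 3 loops at MYB, which holds back fetal globin, fell, with -0.84 (adjusted p = 4.24e-06) and -0.70 (adjusted p = 9.40e-06), while the other had -0.26 (adjusted p = 0.177). BCL11A, a repressor of the fetal genes, had no tested loop by this rule. Of 8 loops at 4 of 10 genes of looping factors, 2 fell and none rose, and of 12 loops at 5 of 14 heme and red cell genes, 4 fell and 2 rose, with medians of -0.29 and -0.14. These counts stand beside the 16.9% of all tested loops that fell and the 16.7% that rose. The lists were not matched for length, and the 2 alpha-globin loops measured 70 and 120 kb. Of all loops of 100 kb or less 36.3% fell, of those of 110 to 400 kb 19.3%, and of those of 410 to 1000 kb 6.61%.

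In the authors' deposited table, loop21307 is classed as gained and the other 16 loops as static. The authors' deposited table gives loop21307 log2 values of 0.06 at 6 h and 1.14 at 72 h with an adjusted p of 0.00561, and loop21315 values of -0.42 and -0.37 with an adjusted p of 0.0123. For loop21321 at HBG2 the authors' deposited table has -0.13 and -0.35 with an adjusted p of 0.0816. Each adjusted p there is the same in the columns of both times, so it cannot be read as the p of 1 time, and 2 of the 17 loops have no log2 value there. The deposited log2 values come from another fit, and how they were estimated was not checked. For loop21307 at 6 h the fit used here gave 0.54 (adjusted p = 0.179 in edgeR), so the sizes are not like measures.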

How the data were processed

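The authors' deposited table held raw contact counts of 33914 loops in 30 columns, 1 per technical replicate, per the file headers; all columns were used. Per the submitters' processing notes, Juicer 1.5.6, DESeq2 and genome build hg38 were used; the loop caller is not given in the sources used here. The table also held the authors' log2 fold changes and adjusted p-values, copied without change, and deposited anchor positions in base pairs, with starts counted from 0 and given here from 1. No local background was subtracted here.

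Technical replicates were summed into 12 libraries by title. Differences were tested on the counts in edgeR 4.0.16 under R 4.3.3 (filterByExpr with minimum count 10 and total 15, TMM, quasi-likelihood test, 1 model of all libraries, no covariate, prior count 2, Benjamini-Hochberg adjustment). Standard errors are the log2 fold change over the root of F. The length correction used a loess offset (span 0.3). Counts of 24132 loops for 72 h against 0 h were simulated with 200 loops changed. Of loops changed 2-fold 76% were recovered, and of those changed 1.5-fold 48%, with 8 false calls among all loops. In the data 33.6% of tested loops were called at 72 h against 0 h, a far larger share, so these rates may not carry over. DESeq2 1.42.0, other scalings and filters, a batch term, and fits without single libraries were alternatives. Replicate numbers were not taken as pairs in the main fit, since not every correlation was over 0.1. Correlations of deviations ran from 0.01 to 0.12 over 12 pairs, with 1 over 0.1. All were above 0, and this cutoff does not show that the replicates are unpaired. A fit with the replicate block was run as an alternative.

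Loops given by library were those with an anchor start in the globin window, those past the threshold and those with the largest rise, fall and mean count. Genes were placed at an anchor if their start or end fell within it. The loops, lists and rules were chosen with earlier results of these data known.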

Additional observations from a re-analysis of the deposited data

Results flagged for a closer look

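In 2 of 24 groups of 4 libraries examined at 0 h and 6 h, 1 library stood apart by Dixon's criterion, where chance gives about 1.2. In loop21314, around the globin genes, 6 h replicate 3 was at a normalized count of 18.4, while the other 3 lay between 22.4 and 22.9. In loop21320, also around them, untreated replicate 3 was at 37.6 and the others lay between 32.3 and 33.0.

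For 3 loops the changes at 6 h and at 72 h differed by edgeR's test of the difference. The log2 difference was 0.63 for loop21307, -0.66 for loop21314 and 0.68 for loop21324, and all 3 calls were lost in DESeq2.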

How the results depend on the processing

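No called result turned its direction under the alternatives run; for single loops 807 values kept their side of the threshold, 36 lost it and 12 gained it. At 6 h against 0 h, where 2 loops changed, DESeq2 called 1 (3.16% of all loops with an adjusted p), scaling to the total count 1 (6.22%), the replicate block 4 (8.03%), a batch term 3 (7.37%), no filter on low counts 3 (4.54%), replicates 1 and 2 alone 1 (2.09%), and replicates 3 and 4 alone 0 (0.916%, with 2 of the 17 at an unadjusted p under 0.05 in edgeR). Leaving out 1 library gave 1 to 4. The block added loop21321 (adjusted p = 0.0484) and loop21327 (0.0446). At 72 h against 0 h, where 6 changed, replicates 1 and 2 alone gave 3 (19.7% of all loops), replicates 3 and 4 alone 3 (17.1%), and leaving out 1 library 6 to 7; DESeq2 (20.6%) and the block (35.5%) gave 6. At 72 h against 6 h, where 3 changed, DESeq2 called 0 (8.2% of all loops, with 3 of the 17 at an unadjusted p under 0.05), replicates 1 and 2 alone 0 (9.53%, 4 unadjusted in edgeR), and leaving out 1 library 1 to 3. Replicates 3 and 4 alone called 1 (7.27%), which was loop21321 (-0.45, adjusted p = 0.0366) and none of the 3. A mean count of at least 20 gave 0, because the 3 loops then went untested. With the length correction, loop21307 had 0.52 (adjusted p = 0.0552) at 72 h against 6 h.

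In 21 of 24 comparisons a library correlated best with the library of its own replicate number in another group, a hint from the data and not the design. Each choice was among 4 libraries, so this is more often than an even choice would give. The main fit leaves such pairing out. Loops with few contacts set the limit: the 3 loops called at 72 h against 6 h had mean counts under 20.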
